A study of Rattus norvegicus with 16 samples.

Results

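Potassium channel genes were taken from the arrays by name: every transcript probe whose gene name begins with Kcn, the prefix of the potassium channel subunit genes. The arrays carried 105 such probes for 88 gene names. A probe was kept where its spot was well above background, in the dye of the sample concerned, in at least 4 of the 16 samples, which left 81 probes for 69 genes. In the whole series, 27294 probes for 22928 gene names were tested, of 41012 probes for 35199 names. The rule used only gene names and the brightness of the spots, but the gene set was chosen with earlier results of these data known.

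RNA came from primary cultures of hippocampal neurons. These were made from Sprague-Dawley rat embryos of either sex, at embryonic day 18 to 19. PRR7, the protein under study, is a membrane-spanning adaptor found at synapses, and the study links it to the ubiquitination of the transcription factor c-Jun. Of the 4 groups, the not transduced cultures received no virus. The nontargeting cultures received a lentivirus with an shRNA (a short hairpin RNA that silences a matching transcript) without a target. The knockdown cultures received a lentivirus from a pTRIP vector with an shRNA against the coding region of PRR7, for which the labels give 1 target sequence. The overexpression cultures received a lentivirus from a FUGW vector with the full-length PRR7. No separate virus control with an empty FUGW vector was analysed here. Each group held 4 samples, which the study's design calls biological replicates, with no statement of separate animals or days. The p-values thus measure the spread between these samples, which shared arrays in pairs within a group. A description label naming adult dentate gyrus contradicts the other labels and was not used. No probe carries the name Prr7, so the level of PRR7 itself was not read.

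Potassium channels let potassium leave a neuron and so set its resting potential, end its action potentials and space them in time. Voltage-gated channels (Kcna to Kcnd, Kcnh, Kcnq) open on depolarization, and silent subunits (Kcnf, Kcng, Kcns, Kcnv) and auxiliary proteins (Kcnab, Kcnip, Kcne) modify them. Calcium- and sodium-activated channels (Kcnma, Kcnn, Kcnt) follow the entry of these ions during firing, inward rectifiers (Kcnj) include the G protein-gated channels that carry slow inhibition, and tandem-pore channels (Kcnk) carry leak current. In hippocampal neurons, the number and mix of these channels are known to change with activity.

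What each value stands for is the signal of a 60-base probe, and where a gene has several probes they read different stretches of its transcripts. The exception is Kcng2, whose A_44_P536779 and A_44_P536780 probes overlap by 20 bases. The first 30 bases of the probes on which the main results rest are given below. At Kcna6, Kcnj3, Kcnk6 and Kcnab1, 1 of 2 probes was called in knockdown against nontargeting and the other, dimmer one was not, so both are shown. Kcnq5l, Kcnt2 and Kcng2 also had 1 called probe beside uncalled ones, and their bases are not shown. Bases are in lower case throughout.
Kcnk1: atgtgaagaaagacaaggatgaagaccaag
Kcnn1: ccatcaggcgcagaagctccggactgtgaa
Kcna1: gtaactgcaccgcaactgatcaaaactgcg
Kcna6 (A_44_P915100): ggccgtgactcaatctagcttttgtgaaga
Kcna6 (A_43_P16193): cccttcttcctggtggaaactctgtgtatc
Kcnj3 (A_44_P452163): acccctccgtacagtgtgaaagagcaggaa
Kcnj3 (A_44_P452282): tgtgtactaacatagattttcctatacatt
Kcnk6 (A_42_P738277): cgaactcaaccagtagcacatgcctgtaac
Kcnk6 (A_44_P421565): caccaggatgaggatgaccaggtggacatt
Kcnab1 (A_43_P11905): ctatagatcctaaggcaatgcatgagccac
Kcnab1 (A_44_P442780): tgaacggctgatgacaattgcctatgagag

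The array annotation places these probes on the rat build rn4. The Kcnk1 probe lies at chr19:56253634-56253693 on the plus strand and that of Kcna1 at chr4:163012003-163012062 on the minus strand. The Kcnn1 probe, at chr16:19100587-19102141 on the plus strand, spans more genomic bases than its own length, as a probe across an exon junction does. The 2 probes of Kcna6 lie 3568 bases apart and those of Kcnj3 1903 bases, those of Kcnk6 867 bases and those of Kcnab1 82549 bases. The annotation does not say whether a probe lies in coding sequence or in a UTR.

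The arrays were read in 2 dyes, and both dyes of an array carried replicates of the same group (replicates 1 and 2 on one array, 3 and 4 on the other). The share of probes well above background ran from 49.2% to 69.6% over the samples, and the median net intensity from 73.2 to 150. Each group thus lay on 2 arrays, every comparison is between arrays, and the number of arrays limits the precision. The fit took the 2 samples of an array as correlated (0.562). The number of members found with 1 value per array is given in the last section. Knockdown and nontargeting shared a slide, and overexpression and not transduced shared the other, so that slide and group cannot be told apart in the remaining comparisons. Of the neuronal markers, 11 passed the brightness rule and Rbfox3 did not, and their summed signal on the log2 scale ran from 17.85 to 18.33 in nontargeting samples and from 18.16 to 18.46 in the remaining samples. Such a sum, here and below, adds linear signals, so bright probes weigh most. A spot left out as an outlier adds nothing to it, so a low sum can come from a dropped spot. Signals of bulk cultures do not separate fewer cells of a type from less RNA per cell.

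Values are normalized log2 intensities, differences are log2 differences of group means from limma with SE, and a probe counts as called at a Benjamini-Hochberg adjusted p under 0.05 over all 27294 probes. Levels are compared between samples of 1 probe, not between probes. Replicates are listed from 1 to 4, which is a naming and not an order.

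**Figure D1:**
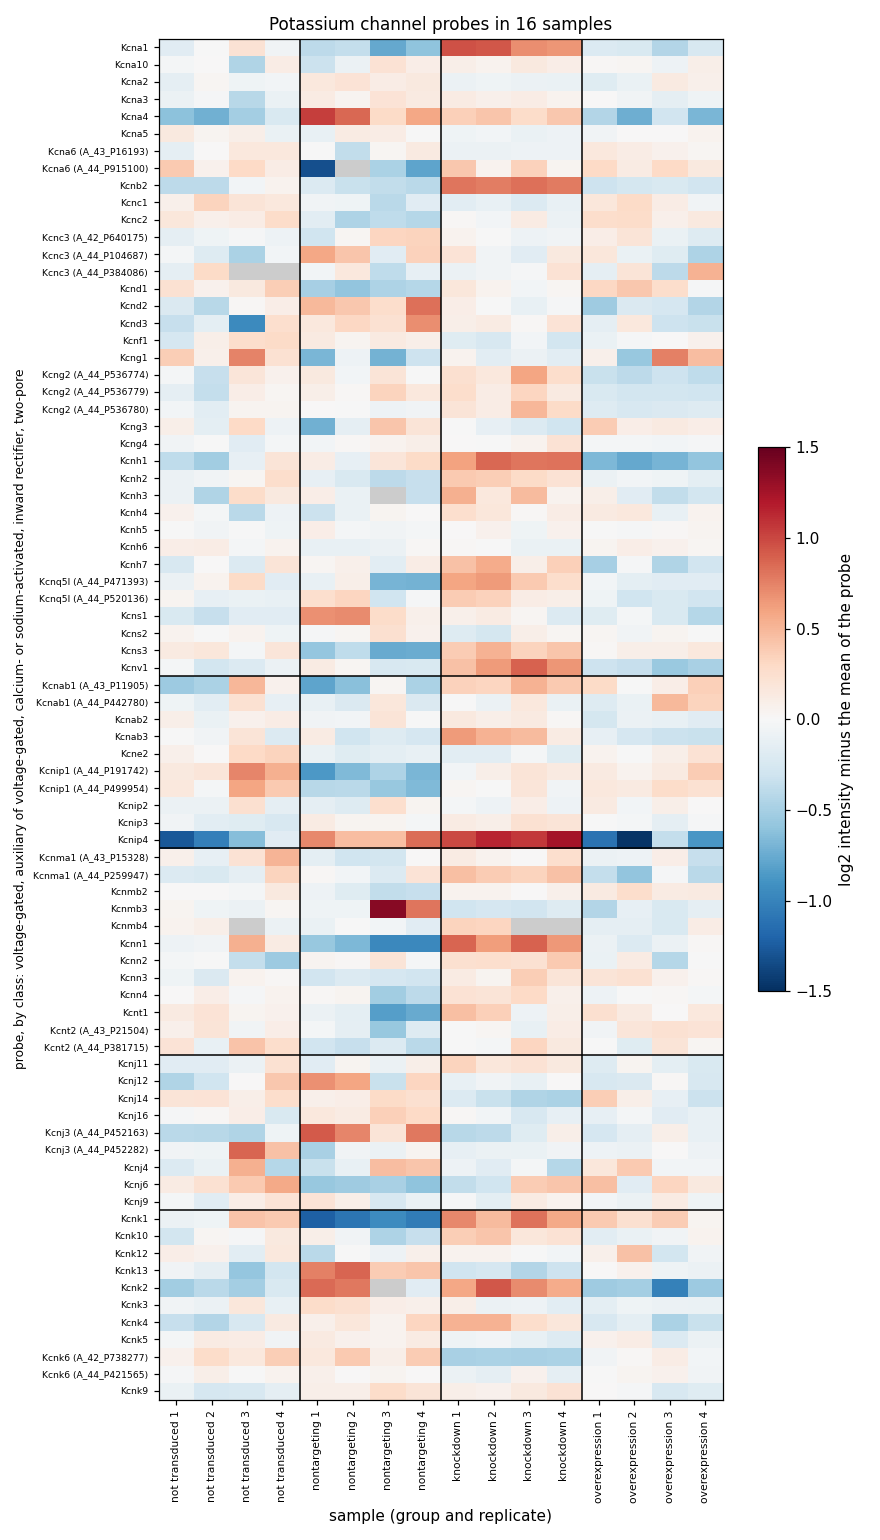
Heat map of 79 of the 81 potassium channel probes (rows, by class) in the 16 samples (columns, by group and replicate). Colour shows the log2 intensity minus the mean of that probe over the samples, and grey marks a value left out as an outlier spot. The nontargeting columns hold both the lowest values of probes such as Kcnk1 and the highest of probes such as Kcnj3.

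Knockdown against nontargeting asks what differs when PRR7 is targeted in cultures that also carry an shRNA lentivirus. More potassium channel genes were higher than lower in knockdown: 21 probes (20 genes, 25.9% of the 81) rose and 4 (4 genes, 4.94%) fell. Over all probes tested, 10.3% rose and 10.9% fell. The largest rises were of Kcnk1, a leak channel, of Kcnn1, a small-conductance calcium-activated channel, and of Kcna1, a Shaker-type axonal channel. The falls were in 2 classes: Kcnk13 and Kcnk6 among tandem-pore channels, and Kcnj3 and Kcnj14 among inward rectifiers. The median difference was 0.12 over the members and -0.02 over all probes, and 54 of 81 members lay above 0 (66.7%, against 46.8% of all probes). Scaling each channel by its median gave 13 called members, 9 higher (11.1%, against 3.82% of all probes) and 4 lower (4.94%, against 7.64%). Leaving out the array of knockdown replicates 3 and 4 gave 15, 12 higher (14.8%, against 6.28%) and 3 lower (3.7%, against 6.78%). On the deposited matrix, whose differences have a median of 0.16 over all probes, 31 of 72 members tested were called, 27 higher (37.5%, against 17.4% of all probes) and 4 lower (5.56%, against 4.7%).

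**Figure D2:**
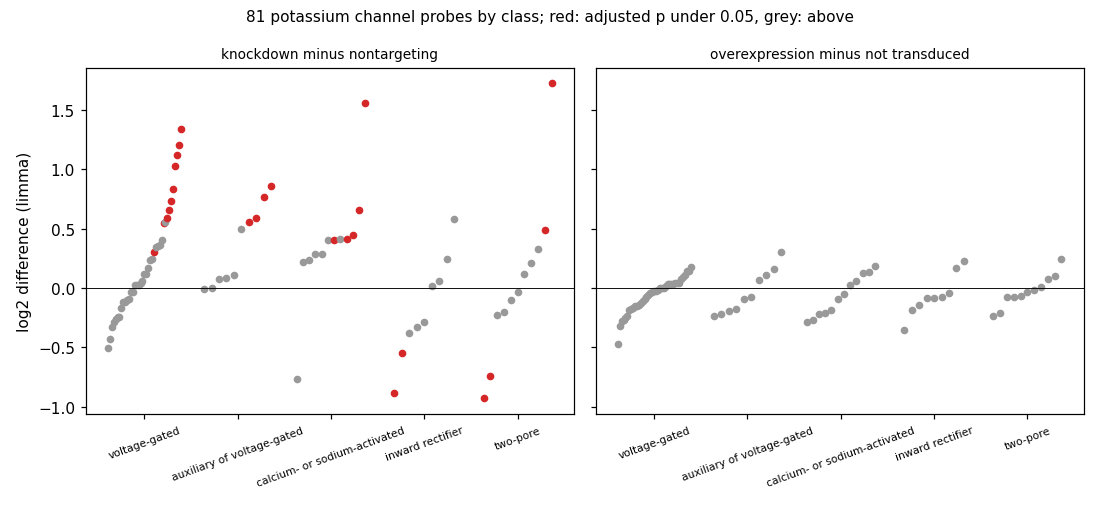
Log2 difference of each of the 81 potassium channel probes (points, sorted within class), for knockdown minus nontargeting on the left and overexpression minus not transduced on the right. Red points passed adjusted p under 0.05. On the left they run from -0.93 (Kcnk13) to 1.72 (Kcnk1), and on the right no point is red.

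Among the voltage-gated channels, 10 of 39 probes rose in knockdown and none fell (median 0.11, range -0.50 to 1.34). Of all probes tested, 10.3% rose and 10.9% fell, and these shares stand beside the counts of each class below. Kcna1 encodes Kv1.1, a low-threshold delayed rectifier of axons. It read 12.07, 12.11, 11.70 and 11.87 in nontargeting, 13.42, 13.39, 13.16 and 13.12 in knockdown, 12.29, 12.45, 12.68 and 12.41 in not transduced, and 12.26, 12.23, 12.03 and 12.23 in overexpression samples. Every knockdown sample was above every other sample, and the nontargeting and overexpression samples overlapped. Kcna1 rose 2.53-fold in knockdown (1.34 ± 0.15 SE, n = 4 per group, adjusted p = 1.59e-05).

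Kcna6 encodes Kv1.6, a relative of Kv1.1. Its A_44_P915100 probe read 9.68, 10.53 and 10.22 in nontargeting replicates 1, 3 and 4. The spot of replicate 2 was an outlier, which the fit dropped. It read 11.42, 11.05, 11.36 and 11.05 in knockdown, 11.40, 11.07, 11.31 and 11.11 in not transduced, and 11.31, 11.12, 11.31 and 11.16 in overexpression samples. The nontargeting samples lay below all others, and the means of the other 3 groups were each 11.22. The probe rose 2.30-fold in knockdown (1.20 ± 0.17, adjusted p = 0.000234).

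Kcnb2, a Kv2 delayed rectifier, read 7.78, 7.65, 7.61 and 7.57 in nontargeting and 8.78, 8.75, 8.80 and 8.76 in knockdown samples. The not transduced samples read 7.59, 7.58, 7.94 and 8.03 and the overexpression samples 7.67, 7.72, 7.75 and 7.70, so that knockdown stood above the other 3 groups, which overlapped. The rise was 2.18-fold (1.12 ± 0.12, adjusted p = 8.37e-06), 3.92-fold from Agilent's processed signal and 3.81-fold on the deposited matrix.

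Of the ether-a-go-go family, Kcnh1 (Eag1) read 11.22, 10.99, 11.28 and 11.40 in nontargeting, 11.71, 11.97, 11.91 and 11.92 in knockdown, 10.73, 10.59, 10.99 and 11.30 in not transduced, and 10.44, 10.34, 10.41 and 10.52 in overexpression samples. Knockdown was the highest group without overlap and overexpression the lowest. Kcnh1 rose 1.58-fold in knockdown (0.66 ± 0.18, adjusted p = 0.0154). This call did not hold with median scaling (0.42, adjusted p = 0.315), nor without the array of nontargeting replicates 1 and 2 (0.0546), of knockdown 1 and 2 (0.0556) or of knockdown 3 and 4 (0.105). Kcnh2, the Erg1 channel, rose by 0.59 ± 0.12 (adjusted p = 0.00217). Its relative Kcnh7 differed by 0.35 (adjusted p = 0.0759, and 0.0346 without nontargeting replicate 1), and stayed uncalled under 22 of 25 alternative settings (adjusted p up to 0.460).

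Kcnd1 encodes Kv4.1, a transient A-type channel of dendrites. It read 9.72, 9.62, 9.75 and 9.78 in nontargeting and between 10.17 and 10.61 in the 12 other samples, and rose by 0.55 ± 0.14 in knockdown (adjusted p = 0.0108). Kcnd2, the major A-type subunit of hippocampal dendrites, went the other way in value: 11.37, 11.30, 11.16 and 11.71 in nontargeting and 10.98, 10.88, 10.78 and 10.87 in knockdown samples. These groups did not overlap, but the difference did not pass (-0.50 ± 0.20, adjusted p = 0.0872, and 0.0179 without nontargeting replicate 3). Kcnd2 stayed uncalled under 23 of 25 alternative settings, with an adjusted p of up to 0.379. The probe named Kcnd3 differed by -0.24 (adjusted p = 0.600). The array annotation places it on chromosome 3, and whether it reads this gene was not checked.

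Kcnq5l, an older name of the M-current gene Kcnq5, rose by 0.83 ± 0.20 at the A_44_P471393 probe (adjusted p = 0.00895), from 8.31 to 9.11 in nontargeting to 9.29 to 9.66 in knockdown samples. Its other probe differed by 0.17 (adjusted p = 0.499). No probe carries the name Kcnq3. Of the further voltage-gated genes, Kcna2 differed by -0.24 (adjusted p = 0.0905), the A-type Kcna4 by -0.33 (0.312) and the fast delayed rectifier Kcnc1 by 0.03 (0.923). Kcnc2, its relative, was well above background in no nontargeting sample and in 2 knockdown samples. Its difference did not pass (0.35 ± 0.13, adjusted p = 0.0623), and the lower bound on the fold between the group means was 1.22. Such a bound sets the mean of the brighter group against, per sample of the dim group, the higher of the probe's own signal and the lowest signal among probes well above background. It carries no sampling error. The adjusted p of Kcnc2 was 0.0475 with the replicate block, 0.0157 without nontargeting replicate 1 and 0.0329 without its array, and the gene stayed uncalled under 15 of 23 alternative settings.

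The electrically silent subunits form no channel alone and alter those they join. Kcns3 read 8.22, 8.42, 8.05 and 8.06 in nontargeting, 9.18, 9.33, 9.14 and 9.21 in knockdown, 8.94, 8.97, 8.78 and 8.98 in not transduced, and 8.82, 8.89, 8.89 and 8.96 in overexpression samples. Knockdown was highest and nontargeting lowest, both without overlap. The rise in knockdown was 2.03-fold (1.02 ± 0.10, adjusted p = 7.05e-06), and 3.08-fold on the deposited matrix. Kcnv1 read 11.27, 11.18, 10.91 and 10.93 in nontargeting and 11.59, 11.79, 12.04 and 11.81 in knockdown samples, and rose by 0.74 ± 0.15 (adjusted p = 0.00248). Of the 3 probes of Kcng2, one rose (0.31, adjusted p = 0.0499) and the others differed by 0.24 and 0.06 without passing. Kcns1 differed by -0.43 (adjusted p = 0.0746), a call with the replicate block (0.0292).

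Of 10 probes for auxiliary proteins of voltage-gated channels, 4 rose and none fell (median 0.30, range -0.01 to 0.86). The shares over all probes were 10.3% and 10.9%. Kcnip1, a calcium-binding partner of Kv4 channels, rose at both probes. The A_44_P191742 probe read 7.52, 7.71, 7.91 and 7.69 in nontargeting and 8.34, 8.46, 8.57 and 8.52 in knockdown samples (0.77 ± 0.17, adjusted p = 0.00409), and the other probe rose by 0.55 ± 0.13 (0.00649). From the processed signal these rises were 1.503 and 2.32, and on the deposited matrix 1.46 and 1.20. Without the array of knockdown 3 and 4 neither was called (0.0513 and 0.0540), and without that of nontargeting 3 and 4 the second was not (0.0536). The not transduced samples read 8.52, 8.56, 9.11 and 8.91 and the overexpression samples 8.51, 8.43, 8.52 and 8.76 at the first probe, so that the nontargeting samples lay below all others. Kcnab3, a Kv beta subunit, rose by 0.59 ± 0.15 (adjusted p = 0.00903), although 1 knockdown sample (7.68) lay at the level of the highest nontargeting sample. Its rise was 1.54 from the processed signal and 1.29 on the deposited matrix, and it was not called without the array of knockdown 1 and 2 (0.123).

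Kcnab1, a beta subunit that inactivates Kv1 channels, read 9.24, 9.40, 10.07 and 9.56 in nontargeting and 10.38, 10.36, 10.55 and 10.42 in knockdown samples at the A_43_P11905 probe, and rose by 0.86 ± 0.26 (adjusted p = 0.0267). The call was lost without nontargeting replicate 4 (0.0568), without the array of nontargeting 1 and 2 (0.136), knockdown 1 and 2 (0.0969) or knockdown 3 and 4 (0.149), and with median scaling (0.172). The Kv4 partners Kcnip2, Kcnip3 and Kcnip4 differed by -0.01, 0.11 and 0.49 (adjusted p = 0.965, 0.444 and 0.289).

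Of 12 probes for calcium- or sodium-activated channels, 5 rose and none fell (median 0.41, range -0.77 to 1.55). The shares over all probes were 10.3% and 10.9%. Kcnn1 encodes SK1, a small-conductance channel of the afterhyperpolarization. It read 7.56, 7.46, 7.17 and 7.16 in nontargeting, where 2 of the 4 samples were well above background, and 9.01, 8.76, 9.01 and 8.78 in knockdown samples. The not transduced samples read 8.05, 8.08, 8.67 and 8.25 and the overexpression samples 8.05, 7.93, 8.04 and 8.15. Knockdown was highest and nontargeting lowest without overlap, while not transduced and overexpression overlapped. The rise was 2.94-fold (1.55 ± 0.16, adjusted p = 1.06e-05). It was 9.19-fold from Agilent's processed signal and 6.38-fold on the deposited matrix.

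Kcnn3 (SK3) rose by 0.44 ± 0.11 (adjusted p = 0.00942), and the call was lost without the array of knockdown 3 and 4 (0.110) and with median scaling (0.0675). Kcnn4, the intermediate-conductance channel, rose by 0.41 ± 0.14 (adjusted p = 0.0446) from a level at which 1 nontargeting sample was well above background, and by 1.47 from the processed signal (adjusted p = 0.0598). Kcnn2 (SK2), the subunit known from hippocampal pyramidal cells, differed by 0.22 (adjusted p = 0.439). The sodium-activated Kcnt1 (Slack) read 8.52, 8.46, 7.79 and 7.86 in nontargeting and 9.06, 8.97, 8.54 and 8.70 in knockdown samples. In both groups the second array was the lower one. Kcnt1 rose by 0.66 ± 0.18 (adjusted p = 0.0146), a call lost without the array of nontargeting 3 and 4 (0.171) or of knockdown 1 and 2 (0.190) and with median scaling (0.0573). Its relative Kcnt2 rose at 1 of 2 probes (0.41 ± 0.12, adjusted p = 0.0270).

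The large-conductance (BK) pore gene Kcnma1 differed by 0.41 and 0.29 at its probes (adjusted p = 0.206 and 0.346). Its neuronal beta subunit Kcnmb4 differed by 0.41 ± 0.16 (adjusted p = 0.0977) in a fit that dropped knockdown replicates 3 and 4 and not transduced replicate 3. Kcnmb2, an inactivating beta subunit, differed by 0.28 (adjusted p = 0.0616, and 0.0483 with the replicate block). Kcnmb3 read 7.69, 7.69, 9.11 and 8.55 in nontargeting and 7.45, 7.49, 7.46 and 7.56 in knockdown samples (-0.77 ± 0.28, adjusted p = 0.0611, and 0.0420 with the replicate block). Replicates 3 and 4 of nontargeting share an array and were the high ones.

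**Figure D3:**
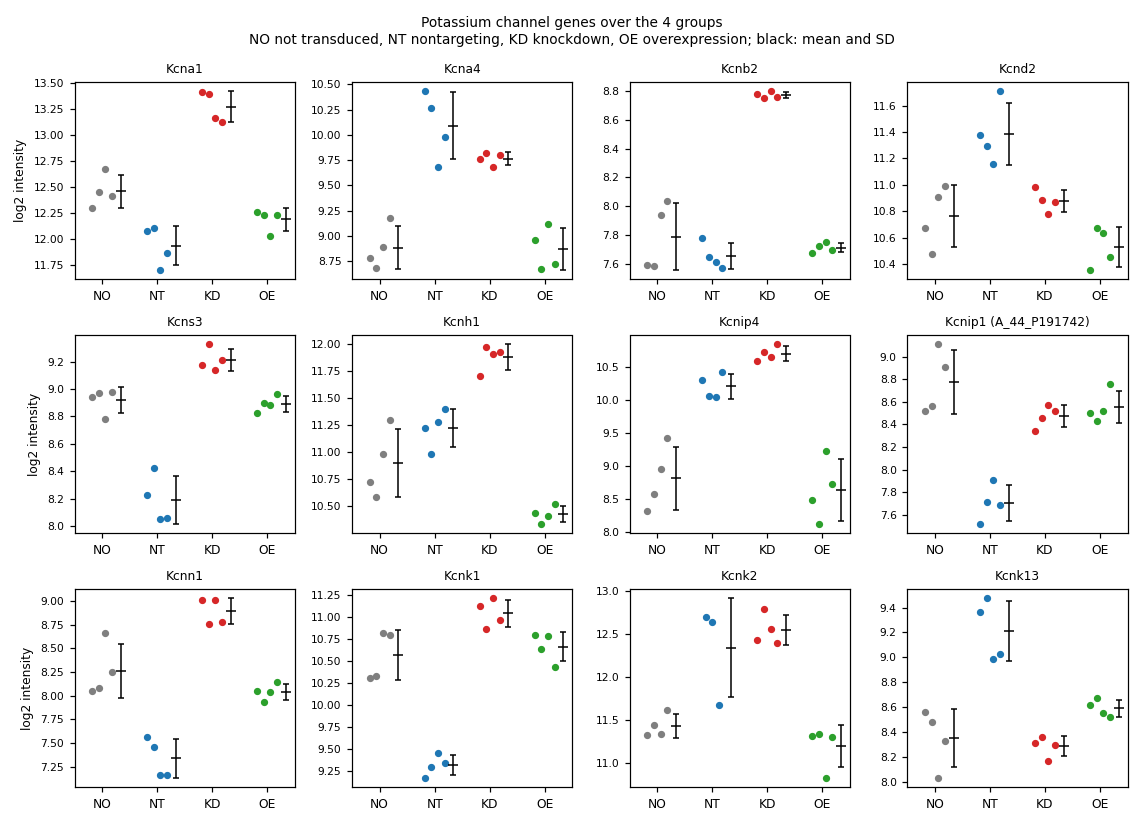
Log2 intensity of 12 potassium channel genes, 1 panel each with its own axis, in not transduced (NO), nontargeting (NT), knockdown (KD) and overexpression (OE) samples. Coloured points are samples and black marks the group mean with its SD. Kcnk1 and Kcnn1 are lowest in NT and highest in KD, Kcna1 and Kcnb2 are highest in KD, and at Kcnip4 and Kcna4 all NT and KD samples lie above all NO and OE samples.

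Of 9 inward rectifier probes, none rose and 2 fell in knockdown (median -0.29, range -0.88 to 0.58). Among all probes 10.3% rose and 10.9% fell, so that 2 of 9 is not read as a result of the class. Kcnj3 encodes GIRK1, a subunit of the G protein-gated channels. Its A_44_P452163 probe (chr3:37256278-37256337) read 12.32, 12.13, 11.58 and 12.18 in nontargeting, between 10.98 and 11.48 in the 4 knockdown, 10.99, 10.98, 10.94 and 11.33 in not transduced, and 11.14, 11.26, 11.48 and 11.28 in overexpression samples. The nontargeting samples lay above all 12 others, which overlapped. Kcnj3 fell 1.85-fold in knockdown (-0.88 ± 0.22, adjusted p = 0.00936), and without the array of knockdown 1 and 2 the difference was -0.71 (adjusted p = 0.114).

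The other GIRK subunits gave different values. Kcnj6 (GIRK2) read 8.52, 8.55, 8.60 and 8.48 in nontargeting and 8.72, 8.79, 9.47 and 9.50 in knockdown samples (0.58 ± 0.23, adjusted p = 0.0902). Its values split by array in knockdown, and without the array of knockdown 1 and 2 the difference was 0.945 (adjusted p = 0.0216). Kcnj6 stayed uncalled under 22 of 25 alternative settings, with an adjusted p of up to 0.650. Kcnj9 (GIRK3) differed by 0.01 (adjusted p = 0.964). Kcnj14, a strong inward rectifier, read 10.26, 10.28, 10.46 and 10.42 in nontargeting and 9.97, 9.84, 9.72 and 9.71 in knockdown samples and fell by 0.54 on the log2 scale (SE 0.15, adjusted p = 0.0174). The call was lost without the array of nontargeting 3 and 4 (0.0934) or of knockdown 3 and 4 (0.156) and on the deposited matrix (0.350). Kcnj11, the pore of ATP-sensitive channels, differed by 0.25 (adjusted p = 0.258), and the astrocytic Kcnj10 was among the genes with no probe kept.

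Tandem-pore channels held both the largest rise and the largest fall, with 2 of 11 probes up and 2 down. Among all probes 10.3% rose and 10.9% fell, so that these counts are not read as a result of the class. Kcnk1 encodes TWIK-1, a weak leak channel. It read 9.17, 9.30, 9.45 and 9.34 in nontargeting, 11.12, 10.86, 11.21 and 10.96 in knockdown, 10.31, 10.33, 10.82 and 10.79 in not transduced, and 10.79, 10.63, 10.78 and 10.43 in overexpression samples. Nontargeting was lowest by a wide margin, knockdown was highest, and not transduced and overexpression overlapped. Kcnk1 rose 3.30-fold (1.72 ± 0.16, adjusted p = 3.10e-06). Kcnk10 (TREK-2), a mechanosensitive leak channel, rose by 0.49 ± 0.15 (adjusted p = 0.0264).

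Kcnk13 (THIK-1) read 9.36, 9.48, 8.98 and 9.03 in nontargeting, 8.31, 8.36, 8.17 and 8.30 in knockdown, 8.56, 8.48, 8.03 and 8.33 in not transduced, and 8.62, 8.67, 8.55 and 8.52 in overexpression samples. The nontargeting samples lay above all others. Kcnk13 fell 1.90-fold in knockdown (-0.93 ± 0.15, adjusted p = 0.000347). This channel is known from microglia. Of 12 microglial markers, 8 were measured and none was called in this comparison, and Aif1, Itgam, Cx3cr1 and Tmem119 did not pass the brightness rule. The summed signal of the 8 ran from 11.01 to 11.30 in nontargeting and from 11.12 to 11.25 in knockdown samples, and the part of these cells in the Kcnk13 result was not tested. Kcnk6 (TWIK-2) read 9.19, 9.43, 9.12 and 9.41 in nontargeting, 8.54, 8.56, 8.54 and 8.55 in knockdown, 9.10, 9.31, 9.19 and 9.40 in not transduced, and 8.98, 9.04, 9.15 and 8.99 in overexpression samples at the A_42_P738277 probe. Knockdown lay below all others, and Kcnk6 fell 1.67-fold (-0.74 ± 0.12, adjusted p = 0.000598). Kcnk2 (TREK-1) and Kcnk9 (TASK-3) differed by 0.33 and -0.03 (adjusted p = 0.434 and 0.873).

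The rises held unevenly under median scaling. It kept 13 of the 25 calls: the 4 falls and the rises of Kcnk1, Kcnn1, Kcna1, Kcna6, Kcnb2, Kcns3, Kcnn4 and both probes of Kcnip1. It ended 12, all of them rises: those of Kcnab1, Kcnh1, Kcnn3 and Kcnt1 given above, and Kcnab3 (0.0646), Kcnd1 (0.253), Kcng2 (0.190), Kcnh2 (0.0852), Kcnk10 (0.178), Kcnq5l (0.0765), Kcnt2 (0.136) and Kcnv1 (0.196). Leaving out 1 array also ended the calls of Kcnd1 (0.0968 without knockdown 1 and 2), Kcnk10 (0.0540 to 0.220 for 3 of the 4 arrays of these groups), Kcnq5l (0.0920 without nontargeting 3 and 4 and 0.106 without knockdown 1 and 2) and Kcnt2 (0.0599 to 0.265 for 3 of the 4). Leaving out 1 replicate ended that of Kcnk10 without nontargeting 2 (0.0562) or 4 (0.0539) and that of Kcnt2 without nontargeting 4 (0.0517) or knockdown 3 (0.0512). The calls nearest the threshold, of Kcng2 and Kcnn4, were lost under 26 and 23 of 36 alternatives.

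Of the 10 genes with more than 1 kept probe, none had probes called in opposite directions, and in knockdown against nontargeting Kcnip1 was called at both. Only 1 probe was called at Kcnq5l, Kcnt2 and Kcng2, given above, and at the 4 genes that follow. At Kcna6, the A_43_P16193 probe read between 7.53 and 8.05 in the 16 samples and did not differ (-0.03 ± 0.14, adjusted p = 0.903), whereas the probe 3568 bases away rose. At Kcnj3, the A_44_P452282 probe was well above background in 4 of 16 samples and differed by 0.06 (adjusted p = 0.894). The dim Kcnk6 probe, well above background in no knockdown sample, differed by -0.10 (adjusted p = 0.527), and the A_44_P442780 probe of Kcnab1 by 0.08 (adjusted p = 0.785). The test of the difference between probes of a gene was not run. The uncalled probes of these 4 pairs read between 6.69 and 8.05 on the log2 scale in all samples.

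**Figure D4:**
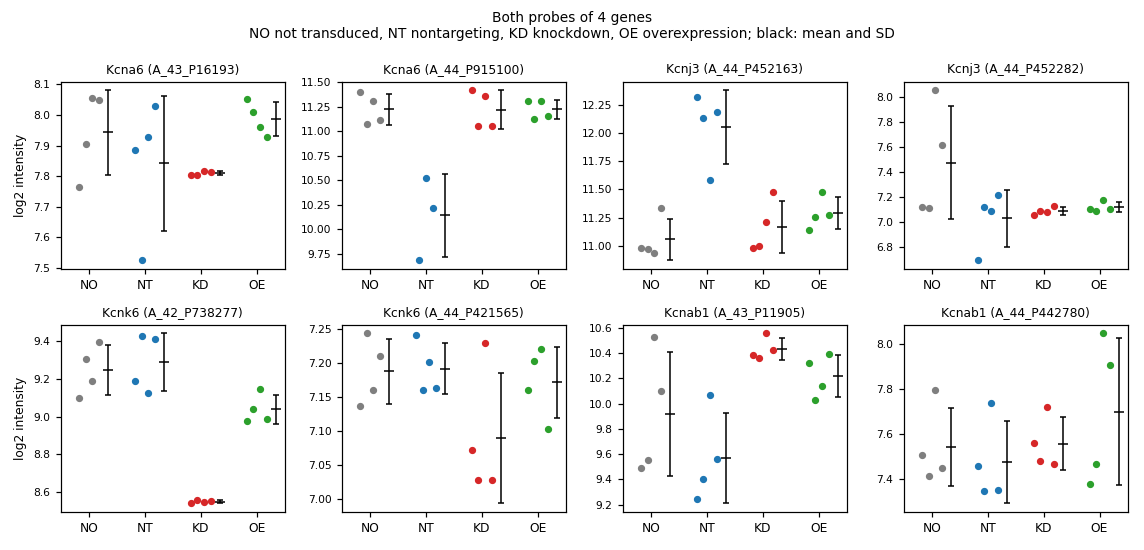
Log2 intensity of both probes of Kcna6, Kcnj3, Kcnk6 and Kcnab1 in the 4 groups (NO not transduced, NT nontargeting, KD knockdown, OE overexpression), with points for samples and black marks for the mean and SD. In each pair 1 probe was called in KD against NT and the other, dimmer one was not.

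Overexpression against not transduced sets cultures with a PRR7 lentivirus against cultures without any virus, so that virus and PRR7 cannot be told apart. No potassium channel probe was called in either direction by limma, beside 0.00366% of all probes called higher (1 probe) and 0% called lower. At an unadjusted p under 0.05 there were 2 members (2.47%, against 3.83% of all probes), both lower in overexpression: Kcnh1 (-0.47 ± 0.18, unadjusted p = 0.0173) and the A_44_P536774 probe of Kcng2 (-0.32 ± 0.12). All member differences lay between -0.47 and 0.30, with a median of -0.05 against -0.01 over all probes. At 5 of the 79 members with a value in all 8 samples (6.33%, against 4.1% of all such probes) every overexpression sample lay below every not transduced sample without passing the test, and at none did every one lie above (1.79% of all such probes). The 5 were Kcna1 (-0.27), Kcnh1, Kcnv1 (-0.28), Kcnmb3 (-0.21) and the A_44_P536780 probe of Kcng2 (-0.19). Whether overexpression and knockdown have different effects on these genes was not tested.

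Nontargeting against not transduced compares cultures with a control virus and cultures without one, on different slides. It called 7 member probes higher (8.64%, against 11.2% of all probes) and 12 lower (14.8%, against 11%). The 6 genes with the largest rises were Kcnip4 (1.39 ± 0.31, adjusted p = 0.00454), Kcna4 (1.21 ± 0.21, 0.000921), Kcnj3 (0.99 ± 0.22, 0.00467), Kcnk13 (0.86 ± 0.15, 0.000673), Kcns1 (0.66 ± 0.16, 0.00885) and Kcnd2 (0.62 ± 0.20, 0.0358). The 6 with the largest falls were Kcnk1 (-1.24 ± 0.16, 7.33e-05), Kcna6 (-1.21 ± 0.17, 0.000260), Kcnip1 (-1.07 ± 0.17, 0.000372), Kcnn1 (-0.92 ± 0.16, 0.000992), Kcnj6 (-0.88 ± 0.23, 0.0134) and Kcns3 (-0.73 ± 0.10, 0.000166). Kcnc2 was at least 1.37-fold lower in nontargeting (adjusted p = 0.0101).

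Median scaling left 11 of the 19 calls and ended those of Kcnc2 (0.380), Kcnd2 (0.261), Kcnj3 (0.0828), Kcnj6 (0.0598), Kcna1 (0.0909), Kcnk9 (0.268), Kcnt1 (0.109) and Kcnt2 (0.108). From the processed signal the differences of Kcnip1 (-1.90 at the A_44_P191742 probe), Kcnn1 (-2.27) and Kcns1 (1.64) were larger.

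Some of these calls rested on single samples or arrays. That of Kcnd2 was lost without not transduced replicate 2 (0.0709) or 3 (0.0619) and without nontargeting replicate 1 (0.0532) or 4 (0.0564), and was 0.211 without the array of not transduced 1 and 2. That of Kcnip4 was lost without the array of not transduced 1 and 2 (1.02, adjusted p = 0.0623), and that of Kcnj6 without the array of not transduced 3 and 4 (0.0977). That of Kcns1 was lost without the array of not transduced 1 and 2 (0.0658) or of nontargeting 1 and 2 (0.0712). Kcna1 was lower in nontargeting by 0.52 (adjusted p = 0.0201) and not called without the array of not transduced 3 and 4 (0.0798) or of nontargeting 3 and 4 (0.113). Kcnt1 (-0.57, adjusted p = 0.0318) and Kcnk9 (0.34, 0.0312) were each lost on leaving out not transduced replicate 2 (0.0567 and 0.0603) or 3 (0.0516 and 0.0654), and Kcnt1 also without nontargeting replicate 3 (0.0512) or 4 (0.0630). Leaving out either array of not transduced or the array of nontargeting 3 and 4 gave an adjusted p of 0.0787 to 0.312 for Kcnt1 and of 0.0743 to 0.121 for Kcnk9. Kcnk2 (0.78, adjusted p = 0.0503) was called without nontargeting replicate 4 (1.24, 0.00227), its low sample, and stayed uncalled under 15 of 24 alternatives.

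Knockdown against not transduced, also across slides, called 10 members higher (12.3%, against 4.77% of all probes) and 2 lower (2.47%, against 5.38%). Kcnip4 is an auxiliary subunit that slows Kv4 channels. It read 8.32, 8.57, 8.96 and 9.42 in not transduced, 8.48, 8.12, 9.24 and 8.73 in overexpression, 10.31, 10.06, 10.05 and 10.43 in nontargeting, and 10.59, 10.74, 10.65 and 10.85 in knockdown samples. Both shRNA groups lay above both other groups without overlap, and Kcnip4 was 3.70-fold higher in knockdown than in not transduced (1.89 ± 0.31, adjusted p = 0.00132).

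Kcna4 encodes Kv1.4, an A-type channel of axons and terminals. It read 8.78, 8.69, 8.89 and 9.18 in not transduced, 8.96, 8.67, 9.11 and 8.72 in overexpression, 10.44, 10.27, 9.69 and 9.98 in nontargeting, and 9.76, 9.82, 9.68 and 9.80 in knockdown samples. The arrangement of the groups was that of Kcnip4, except that nontargeting and knockdown overlapped, and the difference from not transduced was 0.88 ± 0.21 (adjusted p = 0.0157). Kcnk2, a stretch- and lipid-sensitive leak channel, read 12.43, 12.78, 12.56 and 12.40 in knockdown and 11.33, 11.44, 11.33 and 11.62 in not transduced samples (1.11 ± 0.26, adjusted p = 0.0134). It read 12.70, 12.64 and 11.68 in nontargeting replicates 1, 2 and 4, the fit having dropped replicate 3, and 11.31, 11.34, 10.83 and 11.31 in overexpression samples. Leaving out either array of not transduced or of knockdown gave an adjusted p of 0.0544 to 0.0992 for Kcnk2. For Kcna4 it was 0.119 without the array of not transduced 1 and 2, 0.107 without knockdown 1 and 2 and 0.0827 without knockdown 3 and 4.

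The other rises over not transduced included Kcnb2 (0.99 ± 0.12, adjusted p = 0.000101), Kcnh1 (0.98 ± 0.18, 0.00288), Kcna1 (0.82 ± 0.15, 0.00295, and 0.0542 without the array of knockdown 1 and 2), Kcnv1 (0.80 ± 0.15, 0.00332), Kcnn1 (0.63 ± 0.16, 0.0238) and Kcnk4 (0.60 ± 0.16, 0.0263). Leaving out the array of not transduced 1 and 2 or either of knockdown ended the call of Kcnn1 (0.120 to 0.187), and that of Kcnk4 was lost without not transduced replicate 2 (0.0511) or 3 (0.0637) and without the array of not transduced 1 and 2 (0.178) or of knockdown 1 and 2 (0.247). The rise of Kcnb2 was 1.76 from the processed signal and on the deposited matrix. The falls were of Kcnk6 (-0.70 ± 0.12, adjusted p = 0.00256) and Kcnj14 (-0.55 ± 0.15, 0.0294). The call of Kcnj14 was lost without not transduced replicate 2 (0.0563) or 4 (0.0515) and without knockdown replicate 3 (0.0535), and leaving out any 1 array of these groups gave 0.0733 to 0.216. Kcnip3 rose by 0.31 (adjusted p = 0.0424), a call lost on leaving out any of not transduced replicates 2 to 4 or any knockdown replicate (0.0573 to 0.0760) or any 1 array (0.0653 to 0.259). Without the array of knockdown 1 and 2 there were 5 called members, and without that of knockdown 3 and 4 there were 7. With the replicate number as a block, Kcnab3 (0.46, adjusted p = 0.0602 without the block and 0.0423 with it), Kcnh7 (0.42, 0.0528 and 0.0425) and Kcnk1 (0.48, 0.0715 and 0.0456) were called as well. Median scaling ended the calls of Kcna1 (0.133), Kcna4 (0.0749), Kcnh1 (0.0865), Kcnk2 (0.103), Kcnk4 (0.171) and Kcnv1 (0.154).

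Overexpression against nontargeting, the remaining comparison across slides, called 12 members higher (14.8%, against 10.6% of all probes) and 10 lower (12.3%, against 11.9%). The largest rises were of Kcnk1 (1.34 ± 0.16, adjusted p = 4.10e-05), Kcna6 (1.21 ± 0.17, 0.000270), Kcnip1 (0.85 ± 0.17, 0.00216, at the A_44_P191742 probe), Kcnj6 (0.73 ± 0.23, 0.0333), Kcnd1 (0.73 ± 0.14, 0.00163) and Kcnn1 (0.70 ± 0.16, 0.00651). The A_44_P499954 probe of Kcnip1 rose by 0.71 ± 0.13 (adjusted p = 0.00120), and by 0.61 to 2.86 under the alternatives. The largest falls were of Kcnip4 (-1.57 ± 0.31, 0.00200), Kcna4 (-1.23 ± 0.21, 0.000846), Kcnk2 (-1.01 ± 0.27, 0.0143), Kcnd2 (-0.86 ± 0.20, 0.00625), Kcnh1 (-0.80 ± 0.18, 0.00491) and Kcnj3 (-0.76 ± 0.22, 0.0209). From the processed signal the A_44_P191742 probe of Kcnip1 was higher by 1.58 and Kcnn1 by 1.96. Kcnc2 was at least 1.40-fold higher in overexpression (adjusted p = 0.00681). The call of Kcnj6 was lost without nontargeting replicate 4 (0.0613) and without overexpression replicate 1 (0.0548) or 3 (0.0587), and that of Kcnt1 (0.59, adjusted p = 0.0257) without nontargeting replicate 4 (0.0524). Kcnj6 and Kcnt1 were also lost without the array of nontargeting 3 and 4 (0.0813 and 0.264) or of overexpression 3 and 4 (0.163 and 0.0832). Without the array of overexpression 3 and 4, 13 members were called, and Kcnk2 was not among them (0.0833). Kcnj3 was lost without the array of nontargeting 1 and 2 (0.0767) or of overexpression 1 and 2 (0.144), Kcnc2 without that of overexpression 1 and 2 (0.0810), and Kcnn3 (0.38, adjusted p = 0.0207) without that of nontargeting 3 and 4 (0.0605) or overexpression 1 and 2 (0.176). Median scaling left 8 of the 22 calls and ended, among those named here, Kcnj6 (0.140), Kcnd1 (0.0551), Kcnn1 (0.0543), Kcnd2 (0.0642), Kcnh1 (0.0526), Kcnj3 (0.111), Kcnc2 (0.149), Kcnt1 (0.0936) and Kcnn3 (0.254). The comparisons that involve nontargeting share its samples and those that involve not transduced share theirs, so that their calls are not independent.

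**Figure D5:**
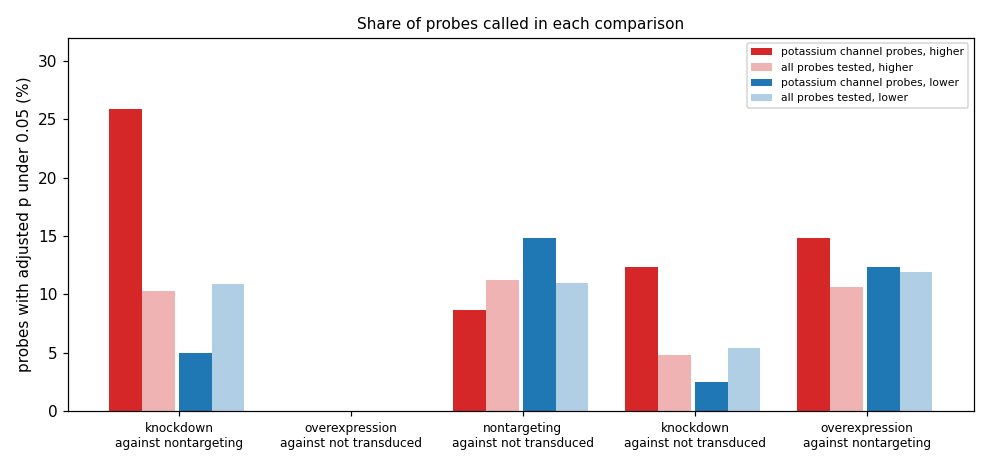
Share of probes (%) with adjusted p under 0.05 in each of the 5 comparisons, higher in red and lower in blue, for the 81 potassium channel probes (full colour) and all 27294 probes tested (pale). For knockdown against nontargeting the bars of rises are 25.9% for the potassium channel probes and 10.3% for all probes, and no bar is visible for overexpression against not transduced.

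Groups that stood apart from all other samples were counted over the 76 member probes with a value in every sample. All 4 knockdown samples lay above the 12 others at 13 members (17.1%, against 4.19% of all such probes) and below them at 1, Kcnk6 (1.32%, against 4.32%). They include Kcna1, Kcnb2, Kcng2, Kcnh1, Kcnip4, Kcnk1, Kcnk10, Kcnma1, Kcnn1, Kcnn2, Kcns3 and Kcnv1, of which Kcnip4, Kcnma1 and Kcnn2 did not pass the test against nontargeting. All 4 nontargeting samples lay below the others at 11 member probes (14.5%, against 7.36% of all such probes), of Kcnc2, Kcnd1, Kcnip1 (both probes), Kcnj6, Kcnk1, Kcnmb2, Kcnn1, Kcns3, Kcnt1 and Kcnt2. They lay above the others at 4 (5.26%, against 8.43%), namely Kcnd2, Kcnj16, Kcnj3 and Kcnk13. Both shRNA groups together lay above at 4 members, Kcna3, Kcna4, Kcnip4 and Kcnk9 (5.26%, against 3.6% of all such probes). They lay below at 1, Kcne2 (1.32%, against 3.1%). These groups are also all the samples of 1 slide, so slide and shRNA virus cannot be told apart here. Overexpression lay above at none (0.323%) and below at 3, Kcng2, Kcnh1 and Kcnv1 (3.95%, against 0.97%), and not transduced above at none (0.503%) and below at none (0.319%).

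Proteins that bind, anchor or tune the channels were listed separately. Of 22 measured partner genes, 6 rose and 1 fell in knockdown against nontargeting (median 0.18). Among all probes 10.3% rose and 10.9% fell. Nedd4l, a ubiquitin ligase of channels, rose by 1.30 ± 0.16 (adjusted p = 9.64e-05) in a fit with 2 knockdown values. Dpp10, a Kv4 partner, rose by 0.68 ± 0.14 (adjusted p = 0.00243), while its relative Dpp6 fell by 0.46 on the log2 scale (SE 0.13, adjusted p = 0.0213). Amigo1, the auxiliary protein of Kv2 channels, rose by 0.75 ± 0.17 (adjusted p = 0.00554), the scaffold Dlg2 by 0.72 ± 0.16 (0.00457) and Cntn2, which clusters Kv1 channels at the axon, by 0.77 ± 0.22 (0.0194). With median scaling 1 partner was higher and none lower.

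On the G protein side of the GIRK channels, 4 of 17 genes rose and 2 fell, beside 10.3% and 10.9% of all probes. The small counts of falls, here and among the pump genes below, are not read as results of these lists. The inhibitory alpha subunit Gnai1 rose by 1.57 ± 0.19 (adjusted p = 4.06e-05) and the gamma subunit Gng3 by 1.08 ± 0.16 (0.000174). Rgs2, which speeds the shut-off of G proteins, fell 3.47-fold from 13.61 ± 0.09 to 11.81 ± 0.13 (SD, n = 4 per group, limma adjusted p = 1.20e-06), and the adenosine receptor Adora1 fell by 0.80 (adjusted p = 4.06e-05). Of 14 potassium pump and cotransporter genes, 4 rose and 1 fell: the potassium-chloride cotransporter Slc12a5 rose by 0.75 ± 0.14 (adjusted p = 0.00171), and the pump subunit Atp1b3 fell by 1.95 (SE 0.14, adjusted p = 4.50e-07, 3 knockdown values). Median scaling turned the list median of the G protein side from 0.09 to -0.07 and left no pump gene called higher.

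The groups differed in other lists as well, and the part of those differences in the potassium channel results was not tested. Over all probes, 10.3% rose and 10.9% fell in knockdown against nontargeting. In nontargeting against not transduced, 11.2% rose and 11% fell. Genes induced by neuronal activity were lower in knockdown than in nontargeting at 10 of 15 and higher at 2 (median -1.001), and against not transduced they were higher in nontargeting at 11 and lower at 2. Their summed log2 signal was 15.34 to 15.83 in nontargeting, 14.46 to 14.75 in knockdown, 14.14 to 14.57 in not transduced and 14.18 to 14.36 in overexpression samples. Genes of proliferating cells rose at 8 of 11 in knockdown (summed signal 13.73 to 14.09, against 12.62 to 12.89 in nontargeting and 11.81 to 13.19 in the other groups), and Mki67 did not pass the brightness rule. The 11.81 was of a not transduced sample, and whether a dropped spot lowered it was not tested. The proliferation genes differed by -0.18 to 0.15 between overexpression and not transduced. Interneuron markers rose at 6 of 14 and fell at 2, and were lower in nontargeting than in not transduced at 9 of 14. Their summed signal was 15.61 to 16.09 in nontargeting, 15.55 to 15.82 in knockdown and 15.87 to 16.70 in the other groups.

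Astrocyte markers rose at 4 of 13 and fell at 1 (median 0.24, and -0.13 with median scaling, which left none called), oligodendrocyte lineage markers rose at 3 of 11, and fibroblast markers rose at 1 and fell at 1 of 7. Among all probes 10.3% rose and 10.9% fell, and a single rise or fall is not read as a change of a list. Summed astrocyte signal was 16.24 to 17.03 in nontargeting and 17.04 to 17.84 in all other samples. Oligodendrocyte signal was 13.71 to 14.38 in nontargeting, 14.89 to 15.40 in knockdown, 14.31 to 14.87 in not transduced and 11.99 to 15.10 in overexpression samples. A spot dropped as an outlier adds nothing to these sums, and whether this gave the 11.99 was not tested. Between overexpression and not transduced, the 11 oligodendrocyte genes differed by -0.44 to 0.09, and none had an unadjusted p under 0.05 in limma. The fibroblast signal was 11.67 to 11.98 in nontargeting and 11.54 to 11.63 in knockdown. Pecam1, Flt1, Tek, Vwf, Rgs5 and Acta2 of the vascular list, Lum of the fibroblast list and Lhx6 of the interneuron list did not pass the brightness rule. Of 8 microglial and 5 vascular markers measured, none was called in limma in this comparison, and none had an unadjusted p under 0.05. Neuronal and excitatory neuron markers each had 1 rise and 1 fall, of 11 and 10. Excitatory neuron signal summed to 15.56 to 15.87 in nontargeting and 16.01 to 16.21 in knockdown samples. Of the transcription regulators listed for potassium channel genes, 1 of 11 rose and 5 fell, among them Crem (-0.63 ± 0.14, adjusted p = 0.00475) and Nfatc4 (-0.53 ± 0.11, 0.00305). Differences of the 11 ran from -3.53 to 0.98. The -3.53 was also the lowest value among the genes induced by activity, so these lists overlap.

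The members left out were dim. Of the 105 probes, 24 missed the brightness rule, and 19 genes had no probe kept. They include Kcnj1, Kcnj2, Kcnj5, Kcnj8, Kcnj10, Kcnj13 and Kcnj15 of the inward rectifiers, Kcnk15 and Kcnk18 of the tandem-pore channels, Kcna7, Kcnh8, Kcnq1 and Kcnv2 of the voltage-gated channels, and the auxiliary genes Kcne1, Kcne3, Kcne4 and Kcnmb1 with the regulator Kcnrg. Of these probes, the one of Kcnj10 was well above background in 3 samples and the others in 0 to 2. Of the 81 kept probes, 51 were well above background in all 16 samples, none was saturated, and 5 had a group with no sample well above background.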

How the data were processed

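The scanner output of 8 two-dye arrays (16 samples) was read as deposited: spot intensities per dye, background intensities and flags from Agilent Feature Extraction 10.7.3.1, per the file headers. The deposited value table holds log2 of the background-subtracted median intensity minus the column median, as found by setting it against the scanner values, and was used as an alternative. Here, intensities were corrected by normexp (offset 50), normalized by loess within arrays and Aquantile between arrays with limma 3.58.1 (R 4.3.3), and each dye was kept as a sample. Control spots and outlier-flagged spots were left out, and spots of 1 probe were averaged. Probes well above background in at least 4 samples, with at least 12 values and 2 per group, were tested (27294).

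The fit used lmFit and eBayes with group and dye as terms, all 16 samples, and the array as a random block (statmod 1.5.0, within-array correlation 0.562). P-values were adjusted by Benjamini-Hochberg. The fit was also run on simulated normalized values with known changes. That simulation held no slide effect, so it cannot speak to slide or to the choice of scaling. Genes named are up to 6 with the largest rises and 6 with the largest falls per comparison, and a list of genes always named. The other genes with values (such as Kcnd1, Kcnh2, Kcnv1, Kcnab3, Kcnk4, Kcnn4, Kcnt2, Kcnmb2 and Kcnmb3) were picked with their values in view. The members and all lists were chosen with earlier results of these data known. A few genes are not reported here by name; counts include them.

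Same-numbered samples deviated together for knockdown and nontargeting (correlations 0.130 to 0.265) and for knockdown and not transduced (0.162 to 0.268). In every group, replicates 1 and 3 were read in Cy3 and 2 and 4 in Cy5. Dye was not taken out of these correlations, and its part in them was not tested. The main fit had no replicate term, and the replicate number served only as an alternative (the replicate block). No label states a shared litter or day.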

Additional observations from a re-analysis of the deposited data

Results flagged for a closer look

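Of 156 checks of a sample against the other 3 of its group, over 40 probes of named genes, 7 found 1 sample far from the others, and chance alone gives about 1 in 20. At Kcna1, overexpression replicate 3 read 12.03 and the others 12.23 to 12.26. At Kcnk2, the same sample read 10.83 and the others 11.31 to 11.34. At the dim Kcnj3 probe (A_44_P452282) it read 7.18 and the others 7.09 to 7.10. Not transduced replicate 4 read 11.33 at the other Kcnj3 probe (others 10.94 to 10.99) and 10.82 at Kcnma1 (A_44_P259947; others 10.26 to 10.35). Not transduced replicate 3 read 7.99 at Kcnip2 (others 7.62 to 7.66), and knockdown replicate 4 read 10.78 at Kcnn2 (others 10.62 to 10.64).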

How the results depend on the processing

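Called members numbered 25 for knockdown against nontargeting, 19 for nontargeting against not transduced, 12 for knockdown against not transduced and 22 for overexpression against nontargeting, and 0 for overexpression against not transduced under every alternative run. In that order of the first 4, no array block gave 39, 35, 28 and 38, and median scaling gave 13, 11, 11 and 8. With 1 value per array there were 16, 15, 7 and 13, and at adjusted p under 0.01, a threshold added after seeing the data, 16, 13, 6 and 14. The deposited matrix gave 20 for knockdown against not transduced (19 higher, 1 lower). Leaving out 1 replicate or, added after seeing the data, 1 array gave 15 to 29, 16 to 27, 5 to 13 and 13 to 26. The replicate block gave 30, 22, 15 and 26. Calls over all 27294 probes moved with the setting too. For knockdown against nontargeting, 2799 were higher and 2968 lower in the main fit, and 1042 and 2086 with median scaling. For knockdown against not transduced these were 1301 and 1468, and 1785 and 1261 with median scaling. Counts of members alone thus do not show a change particular to them.

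Of all called probes, 48.5% were higher in knockdown than in nontargeting, 33.3% with median scaling and 78.8% on the deposited matrix. For knockdown against not transduced these shares were 47.0%, 58.6% and 82.1%, and for overexpression against nontargeting 47.0%, 44.0% and 32.6%. The deposited matrix shifted the median of all differences to 0.16 and 0.20 in the 2 knockdown comparisons and to -0.16 and -0.19 in the 2 overexpression comparisons, and median scaling to 0.14 for nontargeting against not transduced. Over 54 called values of named probes, 1204 of 1341 alternative values stayed past the threshold in the same direction, 137 did not pass, and none reversed. Over 101 uncalled ones, 88 of 2489 passed. Apart from the effects of fewer samples, the cause was not tested. Dim probes limit what can be read: 5 kept members had a group with no sample well above background.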
